A study of Rattus norvegicus with 6 samples.

Results

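The genes of neuropeptide signalling were followed in rat organotypic hippocampal cultures treated with gabazine, and 43 of the 46 listed genes were measured. They are the precursors of neuropeptides, the receptors of these peptides, a binding protein, the granins of secretory vesicles and the enzymes that process the precursors. The members were fixed by name and taken from every probe set to which the platform annotation gives that single gene symbol, which gave 60 of the 31099 probe sets on the array and 43 of the 14218 genes with 1 symbol. Crhr1, the receptor of corticotropin-releasing hormone, and Pcsk1, a prohormone convertase, have no probe set under their own symbol here, and Cort, the precursor of cortistatin, stands only on probe sets with several symbols. These 3 genes have no value here.

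The cultures were slices of hippocampus from Wistar rats, given as postnatal day 4 in the labels, kept by the roller tube method. The control cultures were untreated, and the gabazine cultures received 20 µM gabazine for 90 min, an antagonist of the GABA-A receptor that removes fast inhibition. There were 3 biological replicas, each with its own untreated control, so that the control and gabazine arrays with the same replica number form a pair. The slices are a mixture of cells from pups and are not a pure neuronal preparation: Gfap of astrocytes, Mbp of oligodendrocytes, Slc17a7 of excitatory neurons and Gad1 of GABAergic neurons were all among the bright probe sets of the array, at percentile 94.1 of the mean log2 intensity for Slc17a7 and higher for the other 3 genes. In RNA of whole cultures, fewer cells of a type and less RNA per cell cannot be told apart.

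Neuropeptides are cut out of larger precursors inside dense core vesicles, which granins help to form, and prohormone convertases and carboxypeptidase E do the cutting and trimming. The vesicles release their content mainly during strong or repeated firing, and the peptides act on G protein-coupled receptors, often at a distance from the release site. In the hippocampus, Npy, Sst, Vip and Cck are known as markers of GABAergic interneurons, while Penk and Pdyn are made by dentate granule cells, and several of the precursor genes are known targets of neuronal activity and of the transcription factor CREB.

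The values are log2 intensities as deposited after RMA, and a log2 ratio is the difference within a pair, gabazine less control. The median of the arrays was 7.89 to 7.90 in pair 2 and 8.63 to 8.71 in pairs 1 and 3, so levels are compared within a pair. Levels of different probe sets are not compared as amounts of transcript, because each probe set has its own affinity. The table holds identical values on both arrays of a pair for 16.1%, 24.1% and 25.7% of all probe sets, in the order of the pairs. Among the 60 probe sets of the members there were 7, 18 and 19 such ties. In all, 31 of the 60 were tied in at least 1 pair, against 47.4% of all probe sets. A ratio of exactly 0 is such a tie. As reference points outside the list, the activity-regulated genes Arc and Nr4a1 had log2 ratios of 2.58, 2.06 and 3.71 and of 2.87, 1.94 and 3.10 in pairs 1, 2 and 3, and Gapdh had 0.03, 0.02 and 0.14.

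The members of the neuropeptide system showed no common direction after 90 min of gabazine. The median log2 ratio over the brightest probe sets of the 43 genes was 0.03, against -0.01 over all genes, with 23 means above 0 and 19 below. Limma called 0 of the 60 probe sets at an adjusted p under 0.05, as it called 0% of all probe sets. The smallest adjusted p of a member was 0.747, and the smallest over all probe sets was 0.467. Arc and Nr4a1, with unadjusted p of 0.0067 and 0.0033 in limma, also had an adjusted p of 0.747. An adjusted p above 0.05 therefore does not show here that a gene was unchanged. At an unadjusted p under 0.05, limma put 1 of the 60 higher, Cckbr, where 1.84% of all probe sets were higher, and 1 lower, Vipr1, where 2.68% of all probe sets were lower. On the brightest probe set, Npy, Trh, Cckbr and Vipr2 were higher in all 3 pairs, which is 4 of 43 genes against 7.79% of all genes. Vipr1 and Trhr were lower in all 3 pairs, which is 2 of 43 against 10.8% of all genes. These shares are near the background or below it. The number of arrays limits what a test can call. With 3 pairs the limma fit leaves 2 residual degrees of freedom, and an exact permutation of signs, which was not used here, could give no p below 0.25. The members spread more widely than all genes did, with an SD of the means of 0.29 against 0.19, and this also held within single pairs. The list was chosen with earlier results of these data known and was not matched to all genes by brightness. The wider spread is therefore a description only. A log2 ratio of at least 1 in size was found for 7 of the 43 genes in pair 1, 5 in pair 2 and 1 in pair 3, which is 16.3%, 11.6% and 2.33%, where all genes gave 2.33%, 0.542% and 0.471%.

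**Figure D1:**
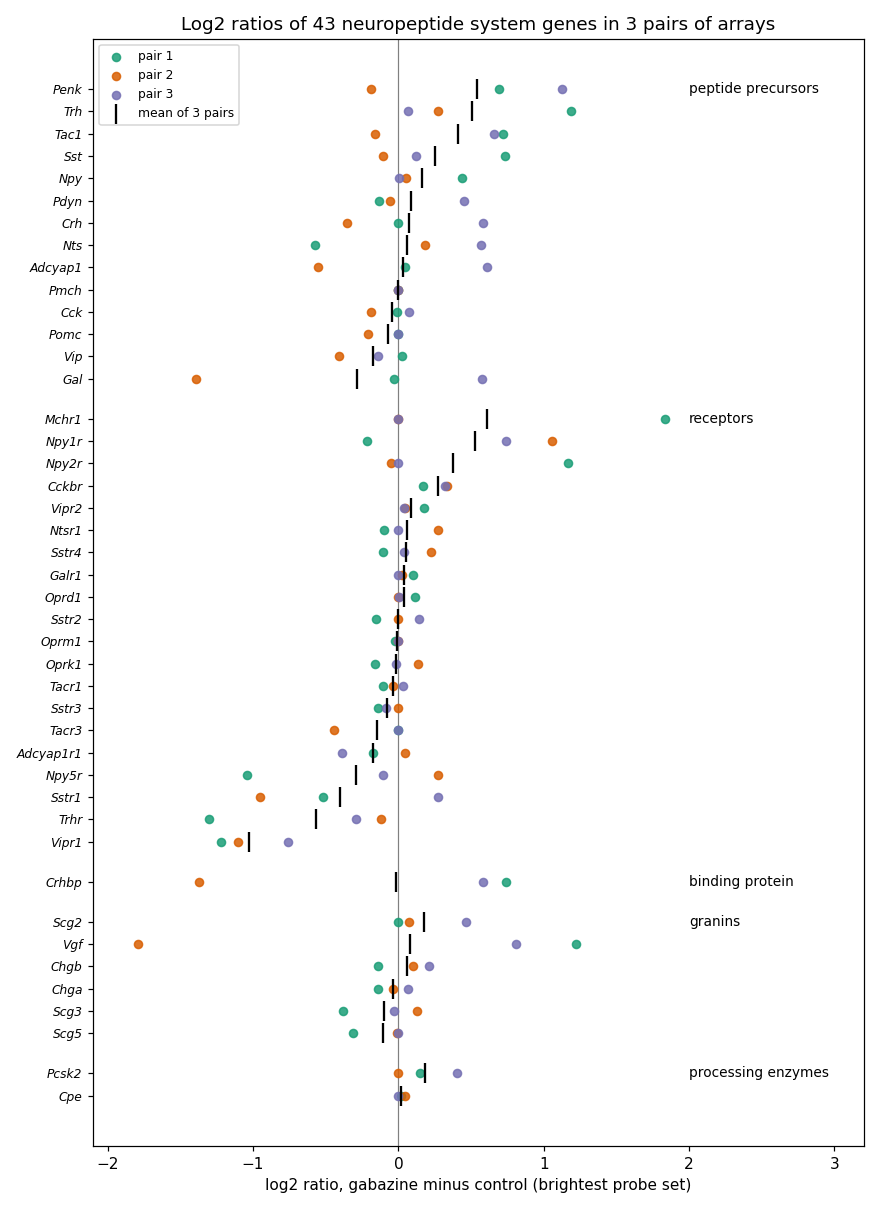
Log2 ratios (gabazine minus control, x axis) of the 43 measured genes, each on its brightest probe set, grouped by role, with 1 coloured point per pair of arrays and a black bar at the mean of the 3 pairs. The points of Vipr1 lie together left of 0, while those of Vgf, Crhbp and Gal are far apart, with pair 2 on the left.

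Vipr1, a receptor that vasoactive intestinal peptide and PACAP both activate, had the lowest mean among the members. Its log2 intensity was 9.14, 8.62 and 9.28 on control arrays 1, 2 and 3 and 7.92, 7.52 and 8.52 on the gabazine arrays with these numbers. Every gabazine array lay below every control array, which held for 1 of the 43 members and for 0.0563% of all genes. None of the members had every gabazine array above every control array, as 0.239% of all genes did. These counts, and the overlaps of groups given below, compare arrays across pairs, whose medians differ. The log2 ratios of Vipr1 were -1.22, -1.10 and -0.76, with a mean of -1.03 ± 0.24 (SD, n = 3), which is a fold of 0.490. Limma gave an unadjusted p of 0.0034 and an adjusted p of 0.747 over all probe sets, so Vipr1 did not pass the adjusted threshold. Without the replicate block its unadjusted p in limma was 0.0558, which ends the call at 0.05 as well. The second probe set of Vipr1 is dim, at percentile 16.4 of the mean log2 intensity against 51.2 for the first, and was tied in 2 pairs, with a ratio of 0.17 in pair 1.

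The other genes of this ligand and receptor family did not share the lower values of Vipr1. Vip, the peptide made by interneurons that contact other interneurons, had 10.19, 9.66 and 10.64 on the control arrays and 10.21, 9.25 and 10.49 on the gabazine arrays, and its groups overlapped, with ratios of 0.02, -0.41 and -0.14. Vipr2, the second receptor that both peptides activate, had ratios of 0.18, 0.05 and 0.04. Adcyap1r1, the receptor selective for PACAP, had -0.17, 0.04 and -0.39 on its brightest probe set and means of 0.07 to 0.14 on its 3 dimmer ones. Adcyap1, the precursor of PACAP, had 0.05, -0.55 and 0.61, so that pairs 2 and 3 lay on opposite sides of 0. None of these 4 genes had an unadjusted p under 0.05 in limma.

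Among the receptors, Cckbr, the receptor of cholecystokinin and gastrin that predominates in the brain, was above its control by a similar amount in every pair. Its control arrays read 9.47, 7.84 and 8.94 and its gabazine arrays 9.64, 8.17 and 9.27, and the groups overlapped. The ratios were 0.17, 0.33 and 0.32, with a mean of 0.275 ± 0.09 (SD, n = 3), an unadjusted p of 0.014 and an adjusted p of 0.747 in limma. Its unadjusted p in limma was 0.609 without the replicate block, 0.0775 without pair 2, 0.0856 without pair 3 and 0.0510 with tied probe sets left out, so that the call of Cckbr was lost in these 4 alternatives. A dimmer probe set of Cckbr had 0.84, 0.00 and 0.08. Cck, the precursor of the peptide that acts on it, read 13.22, 12.06 and 12.49 in the controls and 13.21, 11.87 and 12.56 after gabazine, with ratios of -0.01, -0.19 and 0.07.

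Npy1r, a receptor of neuropeptide Y which is among the genes that the study selected on these samples, was higher in pairs 2 and 3 but not in pair 1. The study also reported Npy1r as up-regulated by RT-PCR in biological replicates, a measure that is not part of the array values. The control arrays read 10.05, 7.94 and 9.33 and the gabazine arrays 9.83, 9.0 and 10.07. The ratios were -0.21, 1.06 and 0.74, with a mean of 0.53 ± 0.66 (SD, n = 3) and an adjusted p of 0.747 in limma. Npy5r, a receptor linked to feeding whose gene neighbours Npy1r, had -1.04, 0.27 and -0.11 on its brightest probe set, and Npy2r, the presynaptic receptor that reduces transmitter release, had 1.17, -0.05 and 0.00. The probe sets of Npy2r and Npy5r are dim, at percentiles 9.58 and 15.3.

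**Figure D2:**
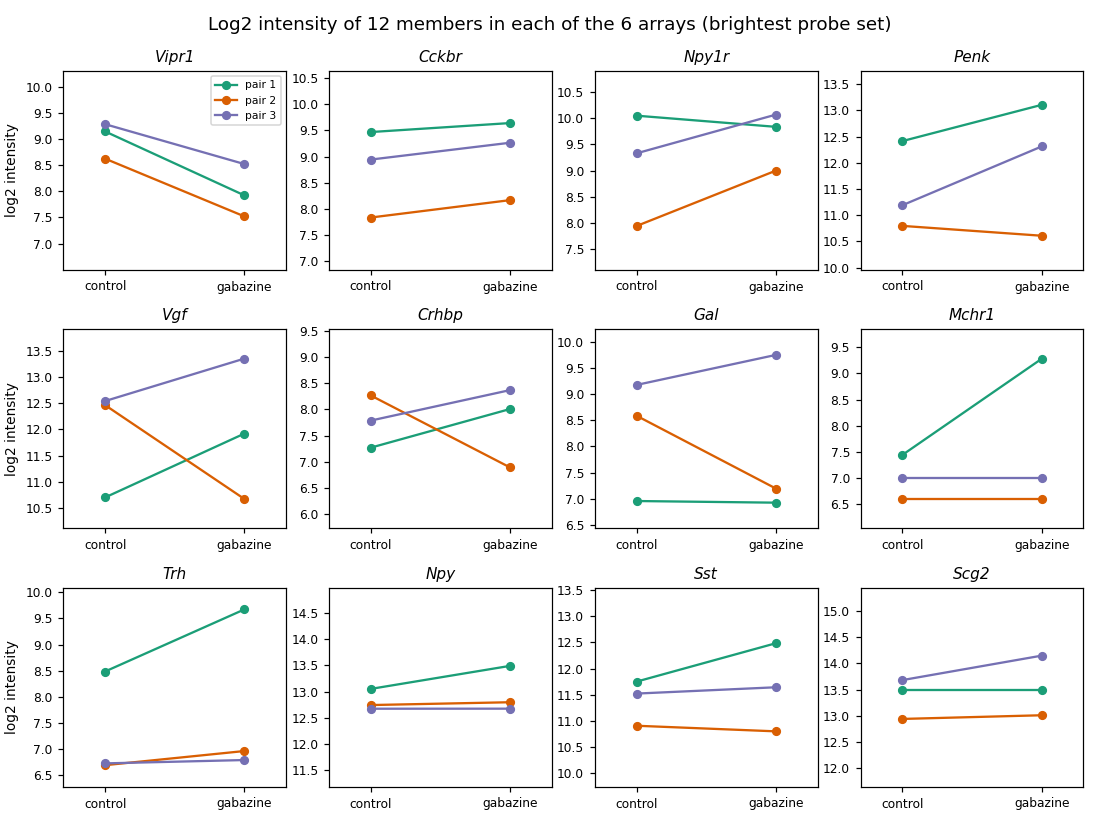
Log2 intensity on each of the 6 arrays for 12 members, with the control array on the left and the gabazine array of the same pair on the right of each panel, joined by a line per pair, and with the same span of the y axis in every panel. All 3 lines of Vipr1 slope down and all 3 of Cckbr slope up slightly, while in pair 2 Vgf goes from 12.46 to 10.67, Crhbp from 8.26 to 6.89 and Gal from 8.58 to 7.19.

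Some receptors had their largest ratio in 1 pair. Mchr1, the receptor of melanin-concentrating hormone, read 7.44 on control array 1 and 9.28 on gabazine array 1, while both arrays read 6.61 in pair 2 and 7.0 in pair 3. Its ligand precursor Pmch had identical values on both arrays in all 3 pairs. Trhr, the receptor of thyrotropin-releasing hormone, read 9.96, 7.28 and 8.52 in the controls and 8.66, 7.17 and 8.23 after gabazine, so that its ratios were -1.30, -0.12 and -0.29, and its 2 dimmer probe sets had means of 0.00 and 0.04. Sstr1, a somatostatin receptor, had -0.52, -0.95 and 0.27 on its brightest probe set. Its dimmer probe sets had 0.52, 0.00 and 0.00 and -0.02, 0.00 and 0.00. The remaining somatostatin receptors Sstr2, Sstr3 and Sstr4 had means of 0.00, -0.08 and 0.05 on their brightest probe sets. The opioid receptors Oprm1, Oprd1 and Oprk1, which bind enkephalins, endorphin and dynorphins, had means of -0.01, 0.04 and -0.01 on their brightest probe sets. Those of Oprm1 and Oprd1 are dim, at percentiles 20.7 and 17.8, and were tied in 2 pairs and in 1 pair. A dimmer probe set of Oprm1 was tied in all 3 pairs, and the dimmer probe sets of Oprk1 had means of 0.05 and -0.15. The tachykinin receptors Tacr1 and Tacr3 had means of -0.04 and -0.15, the galanin receptor Galr1 had 0.04 and the neurotensin receptor Ntsr1 had 0.06. Over the 20 measured receptors the median of the means was -0.01.

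The opioid precursor Penk, which gives rise to the enkephalins, had the highest mean among the peptide precursors. It read 12.41, 10.80 and 11.19 on the control arrays and 13.11, 10.61 and 12.31 on the gabazine arrays. Its ratios of 0.69, -0.19 and 1.12 were higher in pairs 1 and 3 and lower in pair 2, with a mean of 0.54 ± 0.67 (SD, n = 3) and an adjusted p of 0.747 in limma. Tac1, the precursor of substance P and neurokinin A, read 7.89, 8.13 and 8.46 in the controls and 8.61, 7.98 and 9.12 after gabazine, and was likewise lower in pair 2 alone, with ratios of 0.72, -0.16 and 0.66. Pdyn, the precursor of the dynorphins, read 10.25, 9.17 and 10.37 in the controls and 10.11, 9.11 and 10.82 after gabazine on its brighter probe set. Its groups overlapped, with ratios of -0.14, -0.06 and 0.45. The dimmer probe set of Pdyn had 0.85, -0.44 and 0.00. Pomc, the precursor of endorphin and melanocortins, had 0.00, -0.21 and 0.00.

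Of the interneuron peptides, Npy read 13.05, 12.74 and 12.67 on the control arrays and 13.49, 12.80 and 12.68 on the gabazine arrays, so that it was above its control by 0.44 in pair 1, 0.05 in pair 2 and less than 0.01 in pair 3. Sst, the precursor of somatostatin, read 11.75, 10.91 and 11.52 in the controls and 12.48, 10.80 and 11.64 after gabazine, with ratios of 0.73, -0.11 and 0.12. For both genes pair 1 carried most of the mean, which was 0.16 ± 0.24 (SD, n = 3) for Npy and 0.25 ± 0.43 (SD, n = 3) for Sst. Among the markers of GABAergic interneurons, Gad2 had 1.73 and Htr3a had 1.11 in pair 1, both on dim probe sets. The others did not share this: Gad1 had -0.22, Pvalb -0.04 and Reln 0.03, while Slc32a1, Calb2 and Nos1 had 0.00. The median of the measured markers in pair 1 was 0.00. Over the 8 measured markers of 9 the mean log2 level ran from 8.79 to 9.57 on the control arrays and from 8.76 to 9.78 on the gabazine arrays, none was on one side of its control in all pairs, and their part in the peptide values was not tested.

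Trh, the precursor of thyrotropin-releasing hormone, was higher in all 3 pairs, but by very different amounts. The control arrays read 8.49, 6.70 and 6.73 and the gabazine arrays 9.67, 6.97 and 6.80, with ratios of 1.19, 0.27 and 0.06, a mean of 0.51 ± 0.60 (SD, n = 3) and an adjusted p of 0.747 in limma. The ratios of all probe sets had SDs of 0.475, 0.247 and 0.230, with the widest in pair 1. Ttr of the choroid plexus, the epithelium that lines the ventricles, had 4.59, 0.14 and 0.07 in the 3 pairs, and Aqp1, a water channel of the same epithelium, had 1.56, 0.02 and 0.08. The other 5 measured choroid plexus markers ran from 0.00 to 0.59 in pair 1, and the mean log2 level of the 7 measured of 8 was 8.41 on control array 1 and 9.42 on gabazine array 1. Over the groups it ran from 7.86 to 8.41 in the controls and from 7.96 to 9.42 after gabazine, and the table has no detection measure that would show a marker as absent. The part of such tissue in the values of Trh, Mchr1 or Npy2r was not tested. For the 3 rat control transcripts of the array, the 5' probe set had a median log2 ratio above that of the 3' probe set by 0.50 in pair 1, with -0.02 and -0.08 in pairs 2 and 3, and the part of RNA quality was not tested either.

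A group of members lay on opposite sides of their controls in pairs 2 and 3. With a size of 0.3 or more in each pair, a limit chosen after the values were seen, Vgf, Crh, Crhbp, Adcyap1 and Gal were lower in pair 2 and higher in pair 3. These are 5 of 43 members, where 1.03% of all genes did so. With a size of 0.5 or more it was 4 of 43, without Crh, where 0.239% of all genes did so. Crh, with -0.35 and 0.58, was the member closest inside the wider limit, and Sstr1, with -0.95 and 0.27, lay just outside it. No test was made of this pattern, which was found in these values.

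Vgf, a granin-like secretory protein that yields several signalling peptides and is induced by neurotrophins and activity, had the widest span of all members. It read 10.70, 12.46 and 12.54 on the control arrays and 11.92, 10.67 and 13.35 on the gabazine arrays. The ratios of 1.22, -1.79 and 0.81 left a mean of 0.08 ± 1.63 (SD, n = 3). Measured from the median of its own array, Vgf stood 4.57 higher on control array 2 and 2.78 on gabazine array 2, against 2.07 and 3.21 in pair 1 and 3.83 and 4.67 in pair 3. On this scale control array 2 was the highest of the 3 controls for Vgf, and also for Crhbp, Gal and Adcyap1, but not for Crh.

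Crhbp, a protein that binds corticotropin-releasing hormone and limits its action, had the same order of pairs as Vgf. It read 7.27, 8.26 and 7.79 on the control arrays and 8.01, 6.89 and 8.37 on the gabazine arrays, with ratios of 0.74, -1.37 and 0.58. Gal, the precursor of galanin, which dampens excitability, read 6.96, 8.58 and 9.17 in the controls and 6.93, 7.19 and 9.75 after gabazine, with ratios of -0.03, -1.39 and 0.57. Crh, the corticotropin-releasing hormone itself, is on a dim probe set and read 5.44, 5.67 and 7.43 in the controls and 5.44, 5.32 and 8.01 after gabazine, with ratios of 0.00, -0.35 and 0.58. For Vgf, Crhbp, Gal and Crh the log2 intensity was higher on control array 2 than on control array 1, while the medians of these arrays were 7.90 and 8.63. In pair 2 the markers of excitatory neurons also differed, with 1.26 for Camk2a, 0.90 for Neurod6, 0.64 for Slc17a7, 0.53 for Prox1 and 0.49 for Grin2b but -0.31 for Slc17a6, and the median of the 6 measured markers was 0.59 there, against -0.11 and 0.00 in pairs 1 and 3. Their mean log2 level ran from 10.17 to 11.36 on the control arrays and from 10.76 to 11.35 on the gabazine arrays. The median ratio of the 8 interneuron markers was 0.00 in all 3 pairs. The part of a different cell content of the cultures of pair 2 in these values was not tested.

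**Figure D3:**
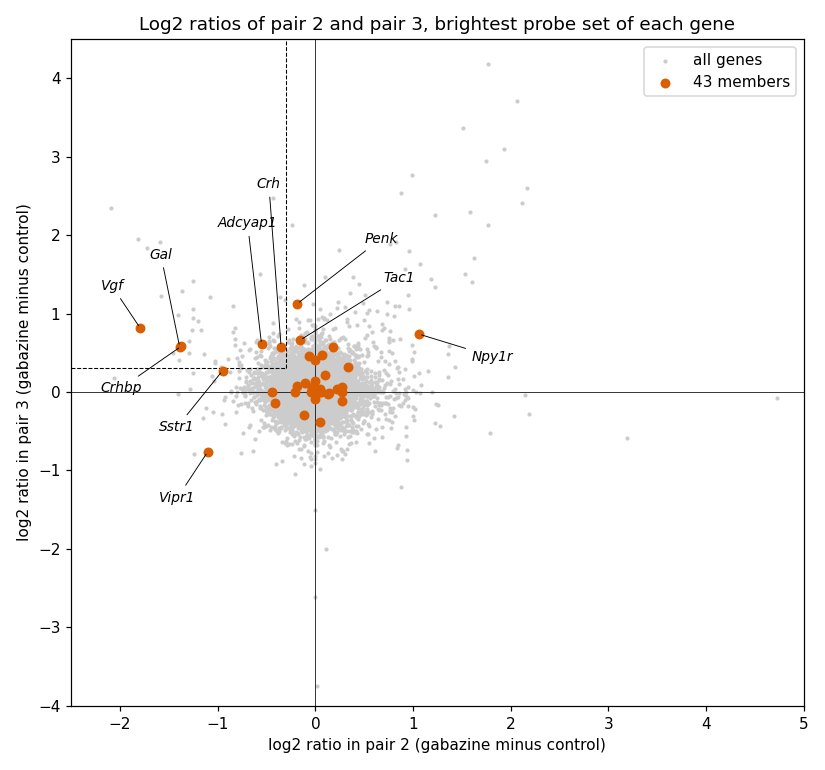
Log2 ratio of each gene in pair 2 (x axis) and pair 3 (y axis) on its brightest probe set, with all 14218 genes in grey and the 43 members in orange, and dashed lines at -0.3 and 0.3 around the upper left corner. Vgf, Gal, Crhbp, Adcyap1 and Crh lie in that corner, Npy1r lies to the upper right and Vipr1 to the lower left.

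The start regions of these genes were read for the binding motifs of factors that neuronal activity is known to switch on, because Vgf and several peptide genes are textbook targets of CREB. RefSeq start regions (build GRCr8, 250 bases before to 50 after the annotated start) matched 37 of the 46 members. A member was counted when any of its start regions held the motif, while the share over all counts single start regions. The members and the whole are thus counted in unlike units, and no enrichment was tested. The full cAMP response element TGACGTCA, searched on both strands, was in the start regions of 4 of the 37, Sst, Scg2, Sstr2 and Vgf, and in 1.83% of 33469 start regions of the table. The short element TGACG, which the full one contains, was in 21 of the 37, among them Vip, Vipr1, Npy1r, Gal and Crhbp and also the unmeasured Cort, and in 21.2% of all. The AP-1 motif TGANTCA was in 2, Npy2r and Nts, and in 7.33% of all. The Egr motif GCGNGGGCG was in 3, Galr1, Pcsk2 and Vgf, and in 4.98% of all, and the CArG box of SRF was in 0, and in 1.64% of all. A match is a run of letters and not evidence of binding.

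The elements are shown with the bases on either side, 5' to 3' on the strand of the gene, with the motif in capitals, because the genes that carry the same 8 letters had unlike values in these arrays. Positions of the first base are counted from the annotated start.
Vgf, chr12:25277093-25277120, minus strand, first base at -90: gaatgaacatTGACGTCAatggggcggg
Scg2, chr9:88256972-88256999, minus strand, first base at -123: gctgagccggTGACGTCAgcgaggaatg
Sst, chr11:90461538-90461565, plus strand, first base at 3: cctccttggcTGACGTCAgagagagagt
Sstr2, chr10:99163270-99163297, plus strand, first base at -73: caagctgccgTGACGTCAcgggtggggg
The short element of Vipr1, on the opposite strand, and that of Vip follow, as those of the receptor with the lowest mean and of its ligand.
Vipr1, chr8:130187686-130187710, plus strand, first base at -65: cctctccgccCGTCAgacgagcccc
Vip, chr1:44470373-44470397, plus strand, first base at -97: atcaccactgTGACGtctttcgagg
Of the 4 genes with the full element, Vgf had ratios of 1.22, -1.79 and 0.81, Sst had 0.73, -0.11 and 0.12, Scg2 had 0.00, 0.07 and 0.47, and Sstr2 had -0.16, 0.00 and 0.14. None of the 4 was higher in all 3 pairs.

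Apart from Vgf, the granins had means between -0.11 and 0.18. Scg2, the precursor of secretoneurin, read 13.49, 12.94 and 13.68 in the controls and 13.49, 13.01 and 14.15 after gabazine, with ratios of 0.00, 0.07 and 0.47. Chgb, a granin that takes part in vesicle formation, read 12.79, 11.86 and 12.58 in the controls and 12.65, 11.96 and 12.80 after gabazine, with a mean ratio of 0.06 ± 0.18 (SD, n = 3). Scg3, which binds other granins at the vesicle membrane, had a mean of -0.10, Chga had -0.04 and Scg5, a chaperone of the convertase Pcsk2, had -0.11. Over the 6 granins the median of the means was 0.01. Of the enzymes, Cpe, carboxypeptidase E, read between 14.69 and 15.22 on all 6 arrays with ratios of 0.02, 0.05 and 0.00, and the convertase Pcsk2 had 0.15, 0.00 and 0.40. The last precursor, Nts of neurotensin, had -0.58, 0.18 and 0.57.

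Further genes of the same pathway, which are no members, were read in the same way, against 7.79% of all genes higher and 10.8% lower in all 3 pairs. Of 20 measured genes of dense core vesicles and peptide processing, 3 were higher and 1 was lower in all 3 pairs, and limma called 0 at an adjusted p under 0.05. Those higher were Pcsk1n, Atp6ap1 and Syt4, and the lower one was Qpct. Pcsk1n, an inhibitor of the convertase Pcsk1, had 0.36, 0.18 and 0.55, and Atp6ap1, a subunit of the proton pump that acidifies vesicles, had 0.15, 0.42 and 0.59. At an unadjusted p under 0.05, limma put Pcsk1n and Atp6ap1 higher and 0 lower, where the shares over all probe sets are those given above. Of 21 further peptide precursors, 5 were higher, Tac3, Hcrt, Oxt, Adm and Nppc, and 1 was lower in all 3 pairs. The lower one was Grp, the gastrin-releasing peptide, with -0.62, -0.72 and -0.14, and limma put Grp and no other gene of this list lower or higher at an unadjusted p under 0.05. Pnoc, the precursor of nociceptin, had 0.23, -1.30 and 0.50, and was lower in pair 2 alone, as were Vgf and Crhbp. In the same list, Cartpt had 0.16, -0.36 and 1.21 and Calca had 0.00, -0.51 and 0.38. Pnoc, Cartpt and Calca thus met the limit of 0.3 in pairs 2 and 3 that was used for the members. Of 19 further peptide receptors 2 were higher, Galr3 and Ntsr2, and 0 lower in all 3 pairs, and 14 of them were tied in at least 1 pair. At an unadjusted p under 0.05, limma put Ntsr2, a neurotensin receptor, higher, with 0.06, 0.18 and 0.15, and 0 lower. Of 7 measured genes that hypothalamus and pituitary are known for, Avp, Prl and Gh1 were tied in all 3 pairs, Hcrt and Oxt were higher in all 3, and Tshb and Lhb were neither, with means of 0.02 and 0.12.

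Ties were most frequent among the dim probe sets of the members. Of the 22 probe sets below the 25th percentile of brightness 19 were tied in at least 1 pair, and the median size of their ratios was 0.11, 0.00 and 0.00 in pairs 1, 2 and 3. Of the 14 between the 25th and the 50th percentile 7 were tied, and the median size was 0.25, 0.15 and 0.04. Of the 12 probe sets between the 50th and the 75th percentile 2 were tied, and the median size was 0.16, 0.26 and 0.36. Of the 12 above the 75th percentile 3 were tied, and the median size was 0.24, 0.09 and 0.10. The table has no detection measure, so that a tie or a ratio near 0 on a dim probe set does not show that the transcript was unchanged.

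**Figure D4:**
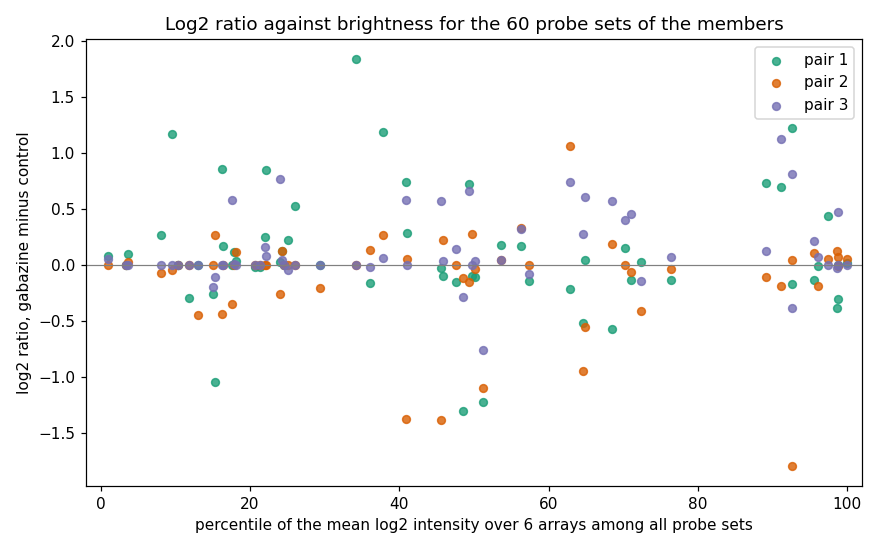
Log2 ratio in each pair (y axis) against the percentile of the mean log2 intensity (x axis) for all 60 probe sets of the members, with 1 colour per pair. Points on the line at 0 gather at the left, where 19 of the 22 probe sets below the 25th percentile were tied in at least 1 pair, and the lowest point on the right is Vgf in pair 2, at -1.79.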

How the data were processed

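The authors hybridised total RNA of 3 untreated and 3 gabazine-treated samples to Affymetrix RAT2302 arrays and made log2 intensities with RMA, and the deposited log2 values were used as they are. No source used here gives the RMA version or says whether the replicas were normalized together. Probe sets were named from the platform annotation, which gives 1 symbol to 20832 probe sets and several to 436, while 9831 are unnamed. The brightest probe set of a gene is that with the highest mean over the 6 arrays.

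A linear model per probe set, with treatment and replica number as terms, was fitted by limma 3.58.1 under R 4.3.3 and leaves 2 residual degrees of freedom. The block follows the study's methods, in which every replica had its own untreated control. P-values were adjusted by Benjamini-Hochberg over all 31099 probe sets. The correlation of both arrays' deviations from the group mean was 0.794, 0.664 and 0.853 for the 3 numbers. Arrays of unlike numbers were not correlated, and the identical values within a pair enter these figures. They therefore do not show how the cultures were matched. The fit was also run on simulated data with equal noise for every probe set. That run does not show which changes the fit can call on these arrays. The members and lists were chosen with earlier results of these data known. Values on every array were given by rule for 18 probe sets: a mean ratio of at least 1 in size, one sign in all pairs with a mean of at least 0.4, an unadjusted p under 0.05, a span above 1.5, or the brightest probe set of Npy, Sst, Vip, Cck, Penk, Pdyn, Tac1, Crh, Scg2, Chgb or Vgf, with Pcsk1 unmeasured. Other genes shown so, Npy1r among them, were chosen after their values were seen. Alternatives were no pairing, each pair left out, 3 scalings, the dimmest 40% left out, eBayes with trend and robust, tied probe sets left out and averaging a gene's probe sets.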

Additional observations from a re-analysis of the deposited data

How the results depend on the processing

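No probe set of a member passed an adjusted p of 0.05 in limma in any alternative, and at an unadjusted p under 0.05 the fit without the replicate block put 0 higher and 0 lower, where the paired fit put 1 each way, Cckbr and Vipr1. With tied probe sets left out 0 were higher and Vipr1 was again lower, and with each pair left out in turn 0 to 4 were higher and 1 to 2 lower. The counts of genes that ran one way in all pairs moved more. With arrays centred on the median 8 were higher, after cyclic loess 7 were higher, and after quantile normalization 4 were lower, while with 1 pair left out 6 to 12 were higher and 3 to 9 lower in both remaining pairs, where fewer pairs are asked to share a sign. The share of all genes was computed only for the values as reported. These counts therefore show how the processing matters and are no result about the members. Over the 18 probe sets given on every array by rule, 10 kept the direction of their mean in all alternatives they entered, and Mchr1, tied in pairs 2 and 3, had a ratio of 0 without pair 1. The other 7 turned only where a pair was left out. Without pair 1 and without pair 2, Vgf had -0.49 and 1.02 and Crhbp had -0.40 and 0.66. Without pair 3 and without pair 2, Gal had -0.71 and 0.27, Crh had -0.18 and 0.29 and Cck had -0.10 and 0.030. Without pair 3 and without pair 1, Pdyn had -0.098 and 0.20 and Chgb had -0.019 and 0.16. Vipr1 kept its direction throughout. The number of arrays and unknown signal over background limit what these values can show.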
